A study of Rattus norvegicus with 8 samples.

Results

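The 8 genes Ccr1, Ccr2, Cxcr4, Cx3cr1, C5ar1, C3ar1, Fpr1 and Plaur encode receptors through which myeloid cells find their way along chemical gradients. They were chosen by name, as the non-control array probes that carry one of these gene names, and they are 8 of 36114 gene names on the array, read by 11 probes. NR8383 is a line of rat alveolar macrophages that was raised from lung lavage of a normal rat and that grows partly attached and partly floating. Cells at passage 20 (P20, the low passage number) were compared with cells at passage 200 (P200, the high one), each with 4 biological replicates on 1 single-colour array apiece. The labels name no treatment, and both groups grew in the same serum-containing medium and were seeded 48 h before harvest, and the comparison asks how gene expression differs after long culture. Both groups come from 1 cell line, and the labels do not say whether the replicates of a group were separately kept lineages, so the p-values measure the spread between these 8 samples.

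Chemotactic receptors of this kind, apart from Plaur, span the membrane and pass a signal through heterotrimeric G proteins, mostly of the Gi class, to phosphoinositide 3-kinase, Rac and the actin network at the leading edge. Each receptor reads its own set of attractants: CC chemokines for Ccr1 and Ccr2, Cxcl12 for Cxcr4, the membrane-bound chemokine Cx3cl1 for Cx3cr1, the complement fragments C5a and C3a for C5ar1 and C3ar1, and bacterial formyl peptides for Fpr1. Plaur is the receptor of the protease urokinase, is held in the membrane by a lipid anchor, and works with integrins and formyl peptide receptors in migration. Arrestins, receptor kinases and RGS proteins end the signal. Alveolar macrophages sit in the airspace, and blood monocytes are the cell for which Ccr2 and Cx3cr1 are best known as markers.

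The probes are 60-base oligonucleotides, and their letters matter here because 1 of them carries a repeat. Those of Ccr1 and Plaur, whose values the comparison turns on, are shown whole, and of the brighter Cx3cr1 probe the last 30 bases are shown with its CA repeat in capitals. All are written 5′ to 3′ as the scanner files give them.
Ccr1 probe: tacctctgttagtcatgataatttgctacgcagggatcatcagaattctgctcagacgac
Plaur probe 1: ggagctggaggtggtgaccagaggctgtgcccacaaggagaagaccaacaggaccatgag
Plaur probe 2: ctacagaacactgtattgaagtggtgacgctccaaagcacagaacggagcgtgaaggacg
Cx3cr1 probe 1, last 30 bases: aacagattCACACACACACACACACACACA
The Ccr1 probe lies on chromosome 8 at 128694469 to 128694528 on the minus strand of assembly rn4, and starts at base 978 of its RefSeq transcript. Plaur probe 1 lies on chromosome 1 at 79712786 to 79712845 on the plus strand, from base 197 of the transcript, and Plaur probe 2 starts at base 445 and has no map position in the files. Cx3cr1 probe 1 lies on chromosome 8 at 125033728 to 125033787 on the minus strand, from base 1167. The files do not say whether a probe falls in coding sequence or a UTR. The repeat of Cx3cr1 probe 1 is 22 bases long, while the longest 2-letter repeat in any other probe of these genes is 6 bases.

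Of the 8 receptors, 4 were measured: Ccr1, C5ar1, Cx3cr1 and Plaur each had a probe well above background, by the scanner software's mark, on all 8 arrays. The other 4, Ccr2, Cxcr4, C3ar1 and Fpr1, had no probe with 4 arrays of 1 group well above background, which is the condition for testing a gene here. On the array as a whole 43.3% of genes met that condition. One receptor, Ccr1, was lower at P200, and the other 3 tested did not pass (limma, Benjamini-Hochberg adjusted p under 0.05 over 15651 genes). The background is 11.4% of all genes tested past the same threshold, 5.85% higher and 5.6% lower, and nothing is read from 1 of 4. Those are 915 genes higher and 876 lower, 51.1% of them higher; scaling by array medians instead, 736 were higher and 422 lower, 63.6% higher.

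**Figure D1:**
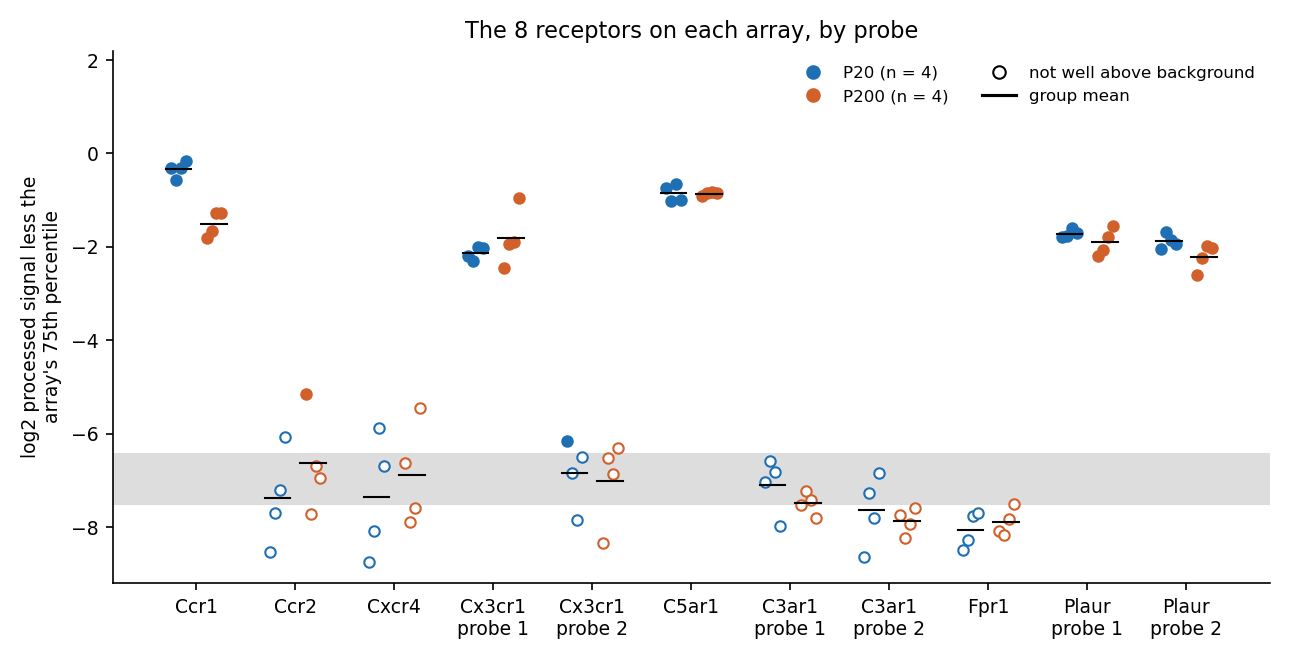
Signal of the 11 probes of the 8 receptors on each of 4 P20 and 4 P200 arrays, as log2 processed signal less the array's 75th percentile, with the group means as bars. Filled points are well above background, the grey band spans the lowest well-above-background signal of the 8 arrays (-7.50 to -6.45), and levels of different probes are not comparable; at Ccr1 all P200 points lie below all P20 points.

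The arrays themselves were alike in the share of spots detected, while P200 replicate 4 was dimmer than the others. Between 51.0% and 54.5% of spots were well above background, and 0 spots were saturated. The processed signal at the 75th percentile was 979 on P200 replicate 4 and between 1349 and 1869 on the other arrays. Macrophage markers were present in both groups: 12 or 13 of the 15 on the array were well above background on each array, including Cd68, Csf1r, Spi1 and Lyz2, while Adgre1 and Cd163 were so on no array and Marco on 1 P200 array. Of 12 macrophage markers tested, Cd14 (-0.91 on the log2 scale), Itgam (-0.78) and Siglec1 (-0.56) were lower at P200 and 0 were higher. Of all genes tested 5.6% were lower. Of 8 lung epithelial markers 0 or 1 was well above background on any array, and the log2 of their summed scaled signal ran from -5.28 to -3.70 at P20 and from -4.85 to -3.98 at P200. Of 5 endothelial markers 3 (Pecam1, Cdh5 and Vwf) and of 6 fibroblast markers 2 (Dcn and Col1a2) were well above background on all 8 arrays, none of them past the test between the groups; their summed signal ran from 1.45 to 1.75 and from 0.31 to 0.52 at P20 and from 1.63 to 1.95 and from 0.45 to 0.71 at P200. Kdr, Tek, Col1a1, Col3a1, Lum and Pdgfra were so on no array.

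Ccr1 is the receptor for inflammatory CC chemokines such as Ccl3, Ccl5 and Ccl7. Its log2 signal less the array's 75th percentile was -0.30, -0.56, -0.32 and -0.15 on P20 replicates 1 to 4 and -1.81, -1.65, -1.27 and -1.28 on P200 replicates 1 to 4. The groups did not overlap, which 9.76% of all genes tested also showed in the falling direction. On the linear scale of processed signal its spots read 1080 to 1392 at P20 and 402 to 648 at P200. The mean fell 2.25-fold (log2 change -1.17 ± 0.14 SE, 95% interval -1.50 to -0.85, n = 4 per group, limma adjusted p = 0.000874). Of all genes tested, 1.41% passed the test with a fall at least as large.

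The fall of Ccr1 stood in every alternative that was run. Over 20 of them, which include each array left out in turn, the change ran from -1.28 to -1.04 and the adjusted p from 0.000197 to 0.0116. Ccr1 is read by 1 probe, which was detected on every array. Averaging probes or changing the filter on detection therefore could not move its change from -1.17, and no other probe of Ccr1 could be compared. On the slide, 3 of the 4 P20 arrays share a row with 1 P200 array and the reverse holds for the other row, so values within a row were taken too: Ccr1 differed by -1.10 in the first row and by -1.47 in the second. Within the columns that hold both groups it differed by -0.96 and -1.13. In bulk RNA of this kind, fewer cells carrying a transcript and less of it per cell cannot be told apart, and attached and floating cells were not separated.

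C5ar1, the receptor for the complement fragment C5a, was near the same level in both groups. Its log2 signal less the 75th percentile was -0.73, -1.02, -0.66 and -0.99 on the P20 arrays and -0.92, -0.85, -0.84 and -0.84 on the P200 arrays. The P200 arrays all lay inside the range of the P20 arrays. The change was -0.01 ± 0.09 SE (95% interval -0.22 to 0.20, limma adjusted p = 0.964), so a change of Ccr1's size lies outside the interval. Its sign has no weight, since it turned to 0.05 with the array median as the scaling. C5ar2, the second C5a receptor, was also well above background on all 8 arrays, and its change of -0.06 ± 0.12 did not pass (limma adjusted p = 0.827). C5 itself was well above background on no array.

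Plaur is read by a pair of probes that gave like results. Plaur probe 1 read -1.79, -1.77, -1.60 and -1.71 on the P20 arrays and -2.19, -2.06, -1.79 and -1.55 on the P200 arrays. Plaur probe 2 read -2.05, -1.69, -1.85 and -1.94 on the P20 arrays and -2.60, -2.24, -1.99 and -2.02 on the P200 arrays. On both probes P200 replicates 1 and 2 were below all P20 arrays and replicates 3 and 4 were not. The changes were -0.18 ± 0.13 SE (95% interval -0.49 to 0.13, limma adjusted p = 0.492) and -0.33 ± 0.14 SE (limma adjusted p = 0.210 over probes), and neither passed the test. The difference of Plaur probe 1 was larger in the second slide row (-0.49) than in the first (-0.01), and with slide column as a block its change was -0.02. Without P200 replicate 4 it was -0.30 (limma adjusted p = 0.126).

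Within an array, the difference between Ccr1 and another receptor does not depend on how arrays are scaled. Ccr1 less C5ar1 ran from 0.34 to 0.84 on the log2 scale at P20 and from -0.90 to -0.44 at P200, a shift of -1.16. Ccr1 less Plaur probe 1 ran from 1.20 to 1.56 at P20 and from 0.27 to 0.51 at P200, a shift of -0.99. In both pairs the P200 arrays all lay below the P20 arrays. Ccr1 was chosen for these pairs after its fall was known, so the shifts are a description with no test, and the offset between a pair of probes within a group carries no meaning.

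Cx3cr1, the fractalkine receptor, is read by a pair of probes that disagree. Probe 1, the one with the CA repeat, was well above background on all 8 arrays and read -2.20, -2.31, -1.99 and -2.02 at P20 and -2.45, -1.93, -1.90 and -0.95 at P200. Probe 2 was well above background on P20 replicate 1 alone, with processed signals of 5.93 to 24.1 at P20 and 5.81 to 14.7 at P200. For probe 1 the change was 0.32 ± 0.27 SE (95% interval -0.30 to 0.94, limma adjusted p = 0.552). P200 replicate 4 was the highest of the 8 arrays and P200 replicate 1 the lowest, and without replicate 4 the change was 0.04 (adjusted p = 0.917). The difference was 0.60 in the first slide row and -0.34 in the second.

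The pattern of Cx3cr1 probe 1 over the arrays was that of other probes with the same repeat. On the array 23 further probes, of 22 gene names, hold at least 18 bases of CA repeat on the printed strand, a length chosen after the values were seen. All 23 were well above background on all 8 arrays, against 40.1% of all 45514 probes. On all 23, P200 replicate 4 was the highest array, which held for 32.2% of all probes that were well above background throughout. On 19 of 23 P200 replicate 1 was the lowest, which held for 2867 of those 18270 probes. Taken less each probe's mean over the 8 arrays, the median of the 23 was -0.20, -0.35, -0.04 and 0.01 at P20 and -0.44, 0.11, 0.08 and 0.91 at P200. Cx3cr1 probe 1 read -0.23, -0.34, -0.03 and -0.05 at P20 and -0.48, 0.04, 0.07 and 1.01 at P200, so it stayed within 0.11 of that median on every array. Their median change from P20 to P200 was 0.31, beside 0.32 for Cx3cr1 probe 1, and of the 20 genes tested through such a probe 0 passed in either direction. Asking for at least 14, 16, 20 or 22 bases of repeat gave median changes of 0.29 to 0.34. Whether any of the signal of Cx3cr1 probe 1 comes from Cx3cr1 transcripts was not tested, and the call of Cx3cr1 as measured rests on that probe alone.

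**Figure D2:**
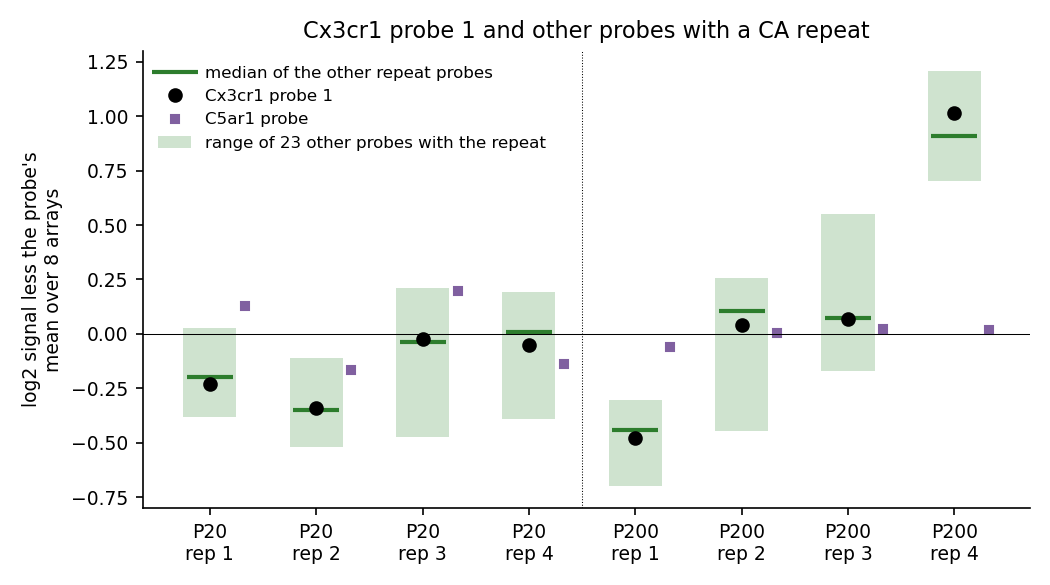
Log2 signal on each array less the probe's mean over the 8 arrays, for Cx3cr1 probe 1 (circles), the 23 other probes with at least 18 bases of CA repeat (bars from lowest to highest, with their median) and the C5ar1 probe (squares). On P200 replicate 4 the Cx3cr1 probe read 1.01 and the repeat probes 0.70 to 1.21, while C5ar1 read 0.02.

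Ccr2, Cxcr4, C3ar1 and Fpr1 were at or near background in both groups. Their 5 probes gave 40 spots over the 8 arrays, of which 1 was well above background: Ccr2, the receptor that draws monocytes towards Ccl2, on P200 replicate 1 with a processed signal of 52.9. The other 7 Ccr2 spots did not exceed 23.1, a value reached at P20. Cxcr4, the receptor for Cxcl12, read 4.02 to 23.1 at P20 and 5.69 to 22.5 at P200. C3ar1, the receptor for C3a, read 6.17 to 16.6 and 4.41 to 10.2 on one probe and 4.33 to 13.6 and 4.46 to 8.74 on the other, at P20 and P200 in that order. Fpr1, the formyl peptide receptor, read 4.75 to 7.45 at P20 and 4.72 to 6.94 at P200, and on all 8 arrays its value was a surrogate that the scanner software puts in place of a signal too low to measure. With no filter on dim probes these 4 genes had limma adjusted p-values of 0.823 to 0.824, and no fold is given because both groups were at background. What these spots show is that no level was measurable, not that the transcripts were absent. The probes of Ccr2, Cxcr4 and Fpr1 have rn4 positions chr8:128893805-128893864, chr13:41308900-41308959 and chr1:56587441-56587500.

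On the ligand side, the CC chemokines were lower at P200. Of 15 listed ligands 10 were measured, of which 7 were lower, 0 higher and 3 did not pass. Of all genes tested 5.6% were lower and 5.85% higher. The median change of the ligands was -0.69 beside 0.004 over all genes tested. All 7 that passed were CC chemokines. With the array median as the scaling, or with slide column as a block, 4 of them passed: Ccl3, Ccl5, Ccl7 and Ccl9. The list was drawn up with falls of several of these chemokines known, so its direction is no independent evidence.

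Ccl7, which binds Ccr1 and Ccr2, had the largest change of these genes. It read 0.91, 0.61, 0.83 and 0.82 on the P20 arrays and -3.09, -3.28, -3.15 and -3.04 on the P200 arrays, and fell 15.2-fold (-3.93 ± 0.09 SE, n = 4 per group, limma adjusted p = 2.5e-08). All 8 arrays were well above background, and the SDs within the groups were 0.13 and 0.10. Ccl5, a ligand of Ccr1, fell 3.25-fold (-1.70 ± 0.18 SE, limma adjusted p = 0.00038), from a range of -3.66 to -3.07 at P20 to one of -5.31 to -4.68 at P200; with normexp background correction its fall was 1.84-fold (-0.88). Ccl3, another Ccr1 ligand, ran from 6.22 to 6.39 at P20 and from 5.47 to 5.73 at P200, and fell by 0.70 (SE 0.08, limma adjusted p = 0.000569). Ccl9, a rodent ligand of Ccr1, fell by 0.68 (SE 0.09, limma adjusted p = 0.00151).

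The remaining 3 chemokines passed with less margin. Ccl2, the main Ccr2 ligand, ran from 4.54 to 4.87 at P20 and from 3.58 to 4.17 at P200, and fell by 0.71 (SE 0.14, limma adjusted p = 0.0139); with the array median its change was -0.65 and its adjusted p 0.0505, and with slide column as a block -0.54 and 0.232. Ccl12, a rodent Ccr2 ligand, fell by 0.79 (SE 0.18, limma adjusted p = 0.0227), and did not pass without P20 replicate 1, 2 or 3 or without P200 replicate 2, with adjusted p up to 0.0683 over the single arrays left out, nor with slide row (0.0679) or slide column (0.0713) as a block. Ccl6, a rodent Ccr1 ligand, fell by 0.34 (SE 0.08, limma adjusted p = 0.0279), and did not pass without P20 replicate 2, 3 or 4 or without P200 replicate 2 or 3, with adjusted p up to 0.0789, nor with slide row (0.0529) or slide column (0.218) as a block. Ccl2, Ccl12 and Ccl6 also did not pass with no filter on dim probes, and Ccl2 did not pass with replicate number as a block. In each of the 7 chemokines every P200 array lay below every P20 array, which 9.76% of all genes tested also showed. The 7 were picked as lower by the test, so this adds no support to it.

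The ligands that are not CC chemokines did not pass the test. Mif, a cytokine that also binds Cxcr4, differed by -0.02 ± 0.06 SE (limma adjusted p = 0.914). Anxa1, an agonist of formyl peptide receptors, differed by -0.18 ± 0.05 SE (limma adjusted p = 0.0784), and Plau, the urokinase bound by Plaur, by 0.42 ± 0.13 SE (limma adjusted p = 0.0759). Plau did pass, as higher, in 2 of 20 alternatives: without P20 replicate 2 (limma adjusted p = 0.0353) and with slide column as a block. Its spots were dim, with a mean of -5.04 at P20 and -4.62 at P200. With normexp background correction its change was 0.205. Cxcl12, Cx3cl1, C5 and Vtn were well above background on no array, and C3 on 2 P20 arrays and 1 P200 array. No level was thus measurable for the chemokines of Cxcr4 and Cx3cr1.

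**Figure D3:**
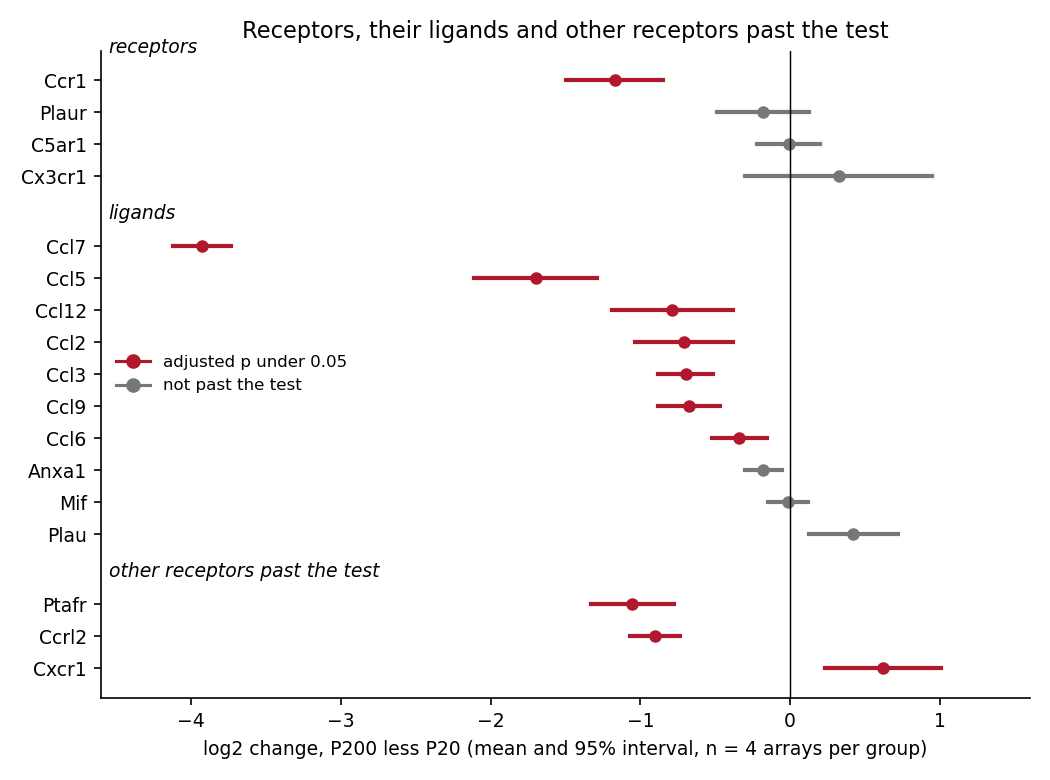
Log2 change from P20 to P200 with its 95% interval for the tested receptors, their tested ligands and the 3 other chemotactic receptors that passed the test, n = 4 arrays per group. Red marks an adjusted p under 0.05; Ccr1 lies at -1.17, the 7 CC chemokines lie between -3.93 and -0.34, and Cx3cr1 is drawn through its repeat-bearing probe.

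Among 34 other chemotactic receptors 31 were on the array and 11 were tested. Of the 11, 1 was higher, 2 were lower and 8 did not pass, beside 11.4% of all genes past the test. Their median change was -0.06. Ptafr, the receptor for platelet-activating factor, read -0.62, -0.71, -0.78 and -0.45 at P20 and -1.99, -1.47, -1.71 and -1.61 at P200. It fell 2.08-fold (-1.05 ± 0.12 SE, limma adjusted p = 0.000594). Ccrl2, a receptor-like protein that binds chemerin without signalling, fell 1.87-fold (-0.90 ± 0.07 SE, limma adjusted p = 6.96e-05). Both kept their calls in the 20 alternatives. Cxcr1, a receptor for neutrophil-attracting chemokines, was higher by 0.62 ± 0.17 SE with an adjusted p of 0.0499, and lost its call in 13 of 20 alternatives, among them each single array left out except P200 replicate 1 (change 0.52 to 0.65 in those that lost it, adjusted p up to 0.136). Fpr2, the other formyl peptide receptor on the array, and Ccr3, Ccr7, Cxcr2, Cxcr3 and Ackr3 were well above background on no array.

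Ccr1 lies in a cluster of chemokine receptor genes, most of which were at background here. Within 200 kb on either side of its probe the files place 14 probes, of which 4 were well above background on all 8 arrays, and 4 genes were tested. Ccr1 was the 1 gene of the 4 that passed, and with 11.4% of all genes past the test nothing is read from the other 3. Ccr9, a receptor for Ccl25 whose brighter probe lies 153 kb away on one side, differed by -0.34 on it (limma adjusted p = 0.278). The other Ccr9 probe was well above background on no array. Fyco1, which links endosomes to microtubule motors, differed by 0.17 (limma adjusted p = 0.253). Ccr1l1, 33.9 kb away on the other side, and both Ccr3 probes were well above background on no array, and Ccr2, 199 kb away, on 1.

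**Figure D4:**
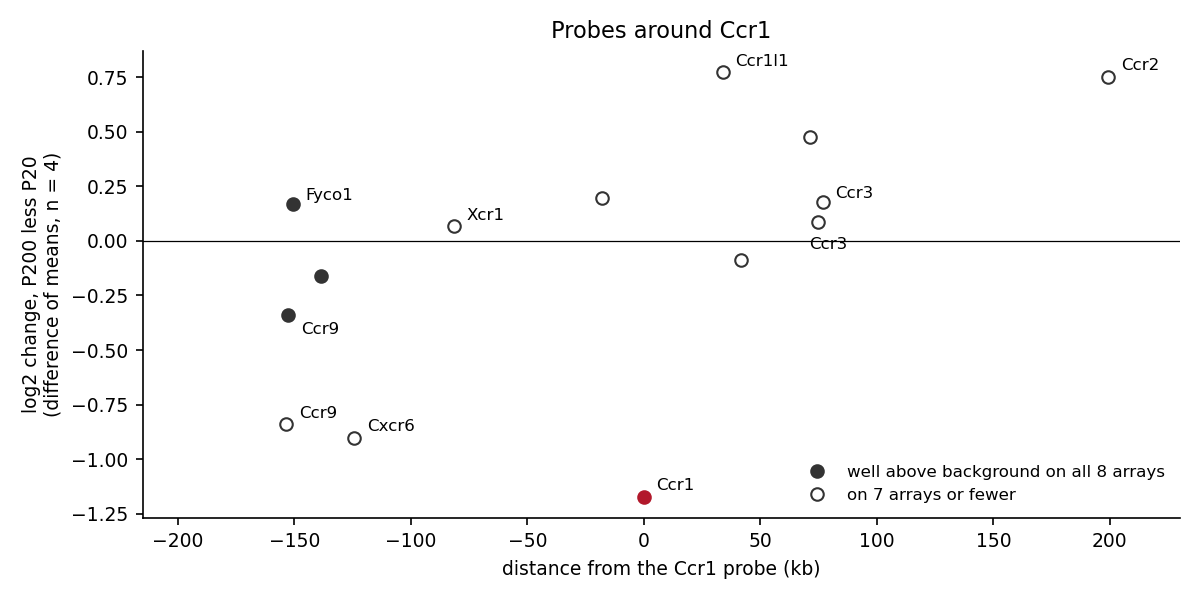
Log2 change from P20 to P200 of the 14 probes within 200 kb of the Ccr1 probe, against distance in kb along the rn4 positions in the files; filled points are well above background on all 8 arrays. Ccr1, in red at -1.17, is the lowest point, and the other filled points lie between -0.34 and 0.17.

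Downstream of the receptors the share past the test was near the 11.4% of all genes. Of 27 G proteins and effectors of migration 25 were tested: Rac2, the haematopoietic Rac GTPase that drives the leading edge, was higher by 0.46 ± 0.09 SE (limma adjusted p = 0.0111), Gng12, a G protein gamma subunit, fell by 0.67 (SE 0.08, limma adjusted p = 0.000929), and 23 did not pass. Rac2 lost its call with slide column as a block and with no filter on dim probes. Among the 23 were Gnai2, the main Gi subunit of leukocytes (-0.13 ± 0.08 SE), Pik3cg, the kinase that G protein beta-gamma subunits switch on (-0.09 ± 0.11 SE), and Dock2, which activates Rac (-0.08 ± 0.08 SE). The median change of the list was -0.07.

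Of 15 genes of receptor desensitisation, all tested, 1 was higher, 1 was lower and 13 did not pass, beside 11.4% of all genes past the test. The median change of the list was -0.05. Both that passed were RGS proteins, which speed the switching off of G proteins. Rgs1 read -0.53, -0.52, -0.52 and -0.56 at P20 and -2.04, -1.65, -1.66 and -2.48 at P200, and fell 2.68-fold (-1.42 ± 0.17 SE, limma adjusted p = 0.000819). Rgs18 read -6.18, -5.78, -6.08 and -7.26 at P20, where replicates 3 and 4 were not well above background, and -3.10, -2.67, -2.84 and -3.17 at P200. It was higher by 3.38 ± 0.29 SE (limma adjusted p = 0.000104), a size that rests on dim P20 spots and was 1.42 with normexp background correction. The receptor kinases Grk2, Grk3, Grk5 and Grk6 and the arrestins Arrb1 and Arrb2 did not pass, with changes from -0.20 to 0.07.

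Of 15 genes of the urokinase system 10 were tested, 1 higher, 1 lower and 8 not past the test, beside 11.4% of all genes past it. The median change of the list was -0.12. Lrp1, the endocytic receptor that clears urokinase receptor complexes, ran from -0.30 to -0.19 at P20 and from 0.26 to 0.74 at P200, and was higher by 0.74 ± 0.10 SE (limma adjusted p = 0.00157). Itgam, the integrin alpha chain of complement receptor 3 and a partner of Plaur, ran from 0.30 to 0.78 at P20 and from -0.48 to -0.01 at P200, and fell by 0.78 (SE 0.13, limma adjusted p = 0.00528). Its call was lost when the probes of a gene were averaged (adjusted p = 0.0576). The inhibitors Serpine2 and Serpinb2 and the protease Plat were well above background on no array.

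Over the 8 arrays, 3 named genes had patterns closest to that of Ccr1, by the root mean square difference between log2 profiles each taken less its own mean. Adgre5, an adhesion receptor of leukocytes, differed by 0.10 and changed by -1.13 ± 0.12 SE. Tnfrsf1b, a receptor for tumour necrosis factor, differed by 0.12 and changed by -1.16 ± 0.10 SE. Ifitm2, an interferon-induced membrane protein, differed by 0.14 and changed by -1.11 ± 0.10 SE. The likeness was the rule of choice, so these falls are a description.

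**Figure D5:**
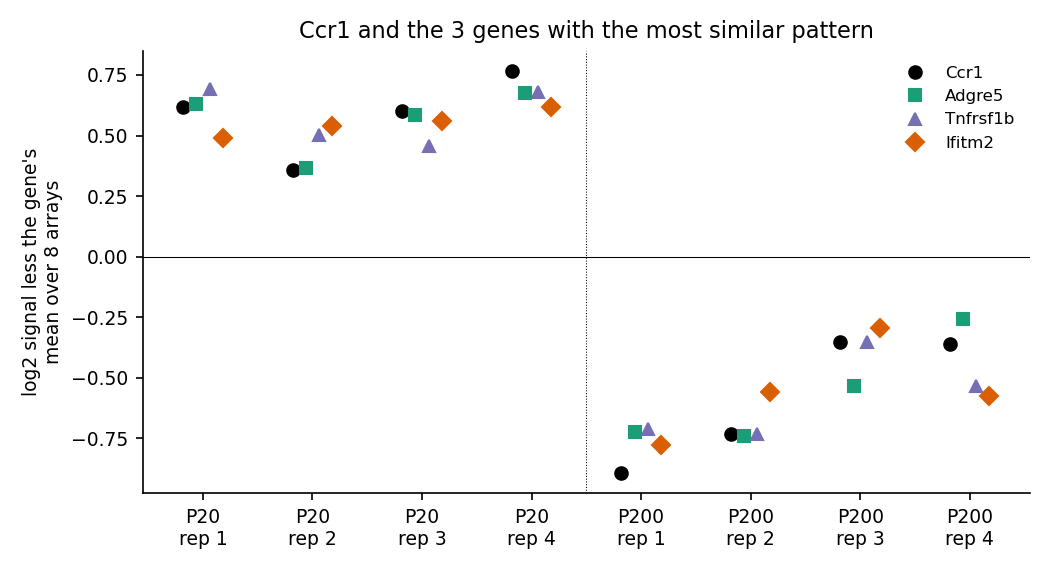
Log2 signal of Ccr1 and of Adgre5, Tnfrsf1b and Ifitm2 on each array less the gene's mean over the 8 arrays. All 4 genes lie above 0 on every P20 array and below 0 on every P200 array, with P200 replicate 1 lowest for Ccr1 at -0.89.

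Of 8 granulocyte and mast cell markers on the array, Camp moved in the same direction as Ccr1. Of the 8, 1 or 2 were well above background on each array, and the log2 of their summed scaled signal ran from 0.59 to 0.78 at P20 and from -0.61 to -0.23 at P200. Camp, an antimicrobial peptide gene that macrophages can also express, was the 1 of the 8 that was tested and fell by 1.13 (limma adjusted p = 5.8e-05), while Mpo, Elane, S100a8, S100a9 and Ltf were well above background on no array. Of 5 lymphocyte markers Nkg7 alone was tested, and it was higher by 1.49 (limma adjusted p = 0.000211). The part of Camp and Nkg7 in the fall of Ccr1 was not tested.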

How the data were processed

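The deposited scanner files hold spot intensity on a linear scale for 8 single-colour (Cy3) arrays on 1 slide. Agilent Feature Extraction 11.0.1.1 made them, per the submitters' processing notes; per the file headers it corrected for background and spatial trend and put a surrogate where a signal was too low. The deposited value table holds raw spot median intensity, and its P200 columns 1, 2, 3 and 4 equal the scanner files numbered 2, 3, 4 and 1; the numbers used here are those of the scanner files.

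Control and outlier spots were left out, spots of a probe averaged, and log2 of processed signal taken less the array's 75th percentile over non-control spots. Probes well above background on all 4 arrays of a group entered (19458), and a gene was its brightest such probe (15651 genes). The groups were compared by limma 3.58.1 under R 4.3.3 (lmFit, eBayes, two-sided, Benjamini-Hochberg over all genes, n = 4 per group). On simulated data of 15651 genes 85 of 100 genes changed 2-fold and 99 of 100 changed 4-fold were recovered. Named genes were all 8 receptors with every probe, the measured ligands, up to 3 called genes per related list and the 3 genes closest to a called receptor; further genes were named after their values were seen. The receptors and lists were chosen with earlier results of these data known. Map positions are those of the files. The number of arrays limits precision. Some items are not reported here.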

Additional observations from a re-analysis of the deposited data

Results flagged for a closer look

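Among 66 pairs of a probe and a group looked at, 2 had an array apart from the other 3, meaning that the gap to the nearest array exceeded Dixon's 95% critical value as a share of the group's range; chance gives this in about 1 of 20 groups. Ccl2 read 3.58 on P200 replicate 1 against 4.08 to 4.17 on the other P200 arrays, and without that array Ccl2 fell by 0.57 on the log2 scale, against 0.71 with it, and still passed the test. Ccl3 read 6.39 on P20 replicate 3 against 6.22 to 6.25 on the other P20 arrays.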

How the results depend on the processing

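Ccr1 was the 1 receptor called in each of 20 alternatives. Plaur and Cx3cr1 were called in 0, with adjusted p of 0.126 to 0.954 and 0.216 to 0.917. C5ar1 was also called in 0 and changed sign with the array median (0.052); leaving out single arrays it ran from -0.067 to 0.053. The other probe of Cx3cr1, tried after the data were seen, gave -0.17 from dim spots.

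Counts of genes past the test moved most: 1158 with the array median, 800 with no filter on dim probes (more genes tested, with a median change of 0.10) and 825 with slide column as a block, against 1791. Leaving out single arrays gave 1231 to 1707. Ligands called numbered 4 with the array median, all lower, and 5 to 7 with single arrays left out. Without P20 replicate 2 these were 5 lower and 1 higher. With slide column as a block 4 were lower and 1 higher. G proteins and effectors called numbered 4 with quantile normalization and with the deposited value table, and 1 with no filter and with slide column as a block. Desensitisation genes called numbered 1 when probes had to be detected on all 8 arrays, which drops Rgs18, and urokinase genes 1 with probes averaged. The cause of the other moves was not tested.

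Same-numbered replicates of the groups correlated at 0.03, 0.13, -0.003 and 0.28 in their deviations from the group means. Differently numbered replicates ran from -0.227 to 0.225. These values do not settle whether the numbers pair the samples, and the value table numbers the P200 arrays otherwise. With the replicate block 1496 genes passed, 775 higher and 721 lower, and Ccr1 stood at -1.17 (limma adjusted p = 0.00231).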
